A study of Mus musculus with 4 samples.

Results

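The translation initiation factor genes of the mouse carry symbols that begin with Eif1 to Eif6. Members were chosen by symbol alone, as all GENCODE M21 protein-coding genes outside chromosome Y whose names start in this way, and 54 of 21755 genes qualified. They encode the factors that bring ribosomes to a start codon, the kinases and binding proteins that hold those factors in check, and relatives with other jobs such as Eif4a3 and Eif5a. The question was which of these mRNAs carry N6-methyladenosine (m6A), where along the mRNA it lies and how strongly each site was enriched. The series mapped m6A by m6A-seq, in which fragmented mRNA is precipitated with an antibody to the modified base and sequenced beside the RNA it was drawn from. RNA came from whole brain of C57BL/6J mice aged 4 weeks, and the series describes the animals as Prrc2a flox/flox, a genotype in which Prrc2a is flanked by recombination sites. No Cre driver is named for these samples, so all of them stand as 1 condition. There were 2 immunoprecipitated (IP) samples and 2 input samples, and each IP sample has a peak list of its own. The study's methods call the 2 IP samples biological replicates, and neither they nor the labels say whether each came from 1 animal or from a pool.

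Initiation begins when the small ribosomal subunit, held by eIF1, eIF1A, eIF3 and eIF5, takes up initiator tRNA as a complex with GTP-bound eIF2. The eIF4F complex, made of the cap-binding protein eIF4E, the scaffold eIF4G and the helicase eIF4A, recruits this assembly to the capped end of the mRNA, and eIF5B then joins the large subunit. Cells turn the process down along a pair of routes, by phosphorylating eIF2, which blocks its recycling by eIF2B, and by sequestering eIF4E with small binding proteins. In neurons both routes are known for their part in synaptic plasticity and memory, and mutations in eIF2B subunits cause a white matter disease.

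Each peak has a fold enrichment, the ratio of IP over input signal given by the authors, and this ratio describes enrichment of the antibody fraction, not the level of the mRNA or the share of molecules modified. A shared interval is the stretch covered by a peak in both lists, and a gene was counted when such an interval overlapped one of its annotated exons by at least 1 base. The 2 lists held 38533 and 30134 peaks and gave 23901 shared intervals. Neither read depth nor counts accompany the lists, so a gene without a peak cannot be told from one with too few reads, and fewer cells that make an mRNA cannot be told from less mRNA per cell. All 11 marker genes looked up for neurons, astrocytes, oligodendrocytes and microglia had a shared exonic peak, among them Snap25, Gfap, Mbp and Cx3cr1. With 2 samples of 1 condition no comparison between conditions exists, and the values below are descriptions without a test.

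Most initiation factor genes carried m6A peaks. A shared exonic peak was found for 37 of the 54 (68.5%), against a background of 45.9% of all protein-coding genes. In replicate 1, 41 members had an exonic peak (75.9%, background 54.9%), and in replicate 2 the number was also 41 (75.9%, background 49.9%). The 37 genes held 103 shared intervals, from 1 in 14 genes to 9 in Eif4g3. Enrichment was modest all the same. Over the 103 intervals the fold enrichment of replicate 1 had a median of 2.47 and quartiles of 1.84 and 3.31, that of replicate 2 a median of 2.04 and quartiles of 1.63 and 2.52. Over the 22332 shared intervals in exons of all protein-coding genes the medians were 2.99 and 2.31. When a fold enrichment of at least 2 was asked for in both replicates, 23 members remained (42.6%), beside 37.1% of all genes. The gap to the background was thus smaller for these stronger peaks.

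**Figure D1:**
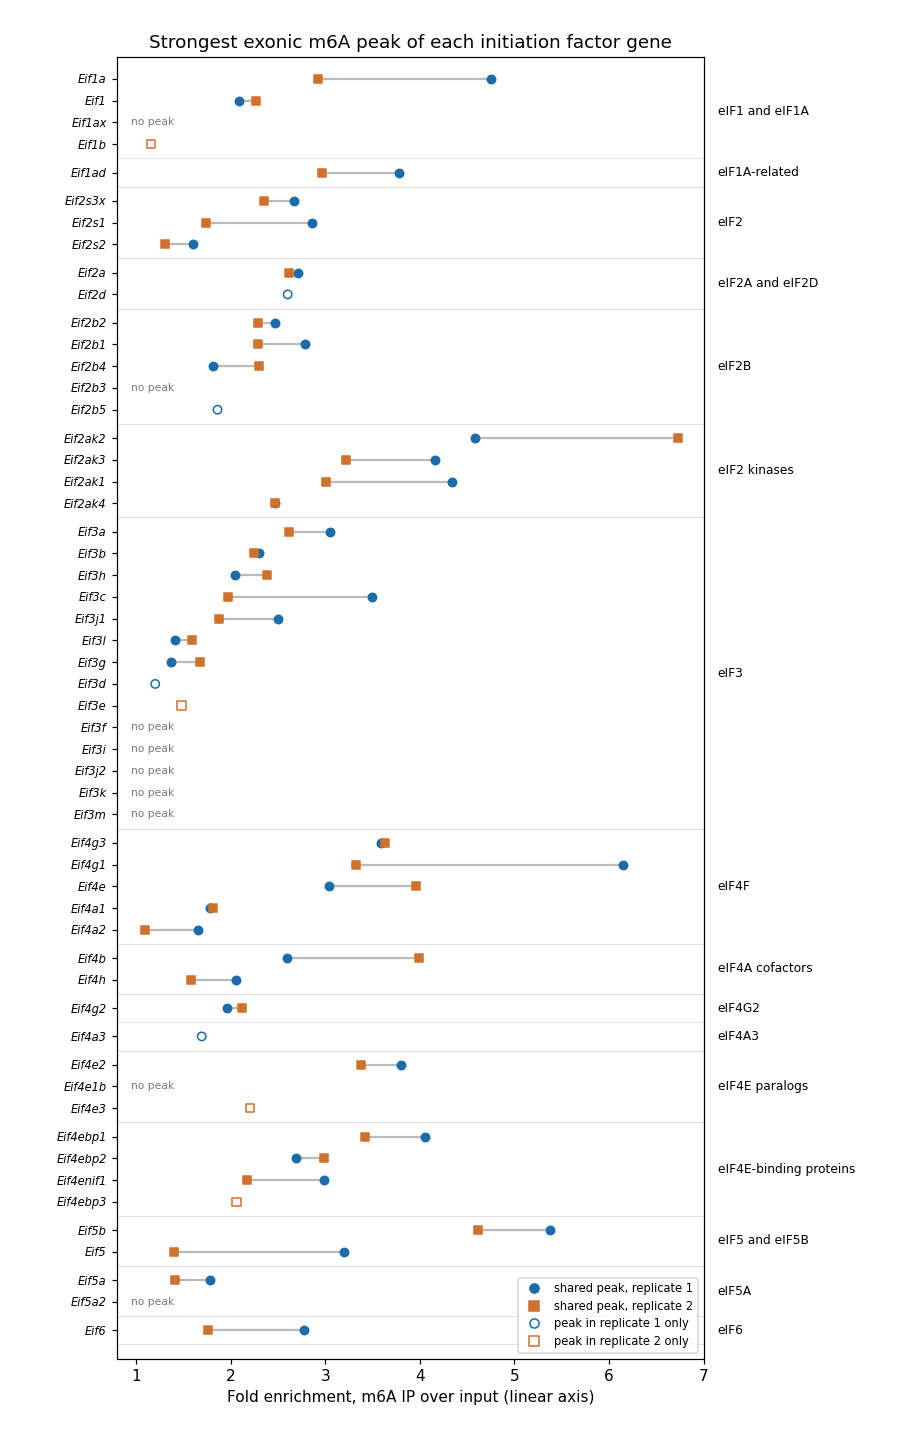
Fold enrichment (linear axis, IP over input) of the strongest shared exonic peak of each of the 54 genes, grouped by factor complex, with replicate 1 as blue circles and replicate 2 as orange squares joined by a line; open symbols give the highest peak of genes with a peak in only 1 replicate. Eif2ak2 (6.73 in replicate 2), Eif4g1 (6.15 in replicate 1) and Eif5b (5.38 in replicate 1) reach farthest to the right, all 4 eIF2 kinases have shared peaks, and 7 of 14 eIF3 genes do not. Of all protein-coding genes, 45.9% have one.

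All 4 genes for eIF2 kinases had a shared peak whose values in replicates 1 and 2 were both at least 2, as did 37.1% of all protein-coding genes. Their mRNAs are all longer than 4000 nt, a class in which 68.5% of all protein-coding genes had a shared peak of any strength. Every gene of eIF2 and of eIF4F had a shared peak as well (background 45.9%). Only 1 of 3 and 3 of 5 reached 2 in both replicates (background 37.1%). The 4 kinases phosphorylate the alpha subunit of eIF2 under different stresses. Eif2ak2, which encodes the double-stranded RNA sensor PKR, had 2 shared intervals, both in its 3′ untranslated region (3′ UTR) of 2578 nt. The stronger one, at chr17:78854534-78854898, was centred 426 nt past the stop codon and stood at 4.58 in replicate 1 and 6.73 in replicate 2. The weaker one, 1537 nt past the stop codon, had values of 3.08 and 2.87. Eif2ak2 was the gene with the highest replicate 2 value of all members, and 234 of all protein-coding genes had a stronger peak by the lower of both values. Eif2ak3 encodes PERK, the kinase of endoplasmic reticulum stress, and had 2 intervals in coding sequence and 1 past the stop codon. Its exon 13, an unusually long internal exon of 787 nt, stood at 5.55 in replicate 1 and at 2.68 in replicate 2, and the interval in its last exon, 157 nt past the stop codon, had 4.16 and 3.22. The neighbouring exon 14 was weaker, at 1.43 and 1.69. Eif2ak1, the haem-regulated kinase HRI, had its strongest interval over the start of a long 3′ UTR (4.34 and 3.01, centred 335 nt past the stop codon), with weaker ones farther along the 3′ UTR (1.77 and 1.96) and across the start codon (2.07 and 1.36). The interval farther along also overlaps an exon of Aimp2 on the other strand, and since the library kit does not mark strand these reads cannot be assigned to one gene. Eif2ak4, the amino acid sensor GCN2, differed from the other three. Its 3 intervals all lay in coding sequence far from the stop codon, in exon 1 at the start codon (2.47 and 2.47), in exon 5 (3.84 and 1.91) and in exon 12 (2.16 and 1.98), and its 3′ UTR of 177 nt had no shared interval. By the lower of both values, the strongest interval thus lay in the 3′ UTR in Eif2ak1, Eif2ak2 and Eif2ak3 and in coding sequence in Eif2ak4.

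The sequences below show the GGACT nearest the centre of these intervals, since GGACT is the commonest form of the motif that the m6A methyltransferase complex modifies. The motif is in capitals, letters are those of the mRNA strand read from GRCm38, and a motif inside an interval is no proof that its adenosine was modified, because an interval is much longer than a motif. The Eif2ak2 windows are chr17:78854696-78854724 and chr17:78853493-78853521 (minus strand, 3′ UTR), the Eif2ak3 windows chr6:70892735-70892765 (exon 13) and chr6:70904368-70904396 (3′ UTR), and the Eif2ak1 window chr5:143902078-143902106 (3′ UTR).
Eif2ak2, stronger interval: acacaaagacatGGACTagaatggaggag
Eif2ak2, second interval: cagccaaccactGGACTgagtgtggggtc
Eif2ak3, exon 13: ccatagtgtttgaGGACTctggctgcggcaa
Eif2ak3, 3′ UTR: ctttgatcagttGGACTcgggaccaattt
Eif2ak1, 3′ UTR: tgacccaagactGGACTaaatgaagcctc

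The substrate of these kinases and its exchange factor were less enriched. All 3 genes for eIF2 subunits had a shared peak, as did 45.9% of all protein-coding genes. Eif2s1, which encodes the phosphorylated alpha subunit, had 1 interval over the stop codon at 2.86 in replicate 1 and 1.74 in replicate 2. Eif2s3x, the gene for the GTP-binding gamma subunit, had 1 interval in the 3′ UTR at 2.67 and 2.36. Eif2s2, for the beta subunit, had 2 coding intervals, both under 2 in both replicates. Of the 5 genes for eIF2B, the exchange factor that reloads eIF2 with GTP, 3 had shared peaks (60.0%, background 45.9%). The strongest stood at 2.79 and 2.29 near the stop codon in Eif2b1 and at 2.46 and 2.29 over the first exons in Eif2b2. Eif2b4 had 1.82 and 2.30 in its 5′ UTR, where the interval also overlaps an exon of Snx17 on the other strand. The catalytic subunit gene Eif2b5 had 2 coding peaks in replicate 1 (1.59 and 1.86) and none in replicate 2, and Eif2b3, whose product pairs with it, had no exonic peak in either list. Among the other proteins that can bind initiator tRNA, Eif2a had 3 shared intervals over the consecutive exons 11 to 13, the strongest at 2.72 and 2.62. Eif2d had 2 peaks in replicate 1 alone (2.60 and 2.59), neither of them over its representative transcript. The peak at 2.60 also overlaps an exon of Rassf5 on the other strand.

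The scaffold eIF3 was divided. Of its 14 genes, 7 had a shared peak (50.0%), close to the background of 45.9%. Eif3a, the gene for the largest subunit and the organiser of the complex, held 8 of the 21 eIF3 intervals. The strongest by replicate 1 covered exon 19, an internal exon of 662 nt, at 6.09, but this interval reached only 2.54 in replicate 2, and in all 8 intervals replicate 1 was the higher. Of the 8 intervals, 7 lay in exons 16 to 22 and formed a single stretch of 1796 nt on the spliced mRNA, which ended 83 nt past the stop codon. The remaining interval lay in exon 12 (2.63 and 2.12). Eif3b, whose product is an RNA-binding core subunit, had 4 intervals. A pair lay in exon 1, starting across the start codon (2.30 and 2.24, then 1.65 and 2.24). Both of this pair fall under the same replicate 2 peak, so 2.24 is a single value. Another was centred before the stop codon (2.40 and 2.10) and one in the 3′ UTR (1.59 and 2.31). Eif3c, another core subunit, had 3 coding intervals with a best value of 3.49 and 1.97 in exon 9. Eif3h had 1 interval over the stop codon (2.04 and 2.39), and Eif3l (1.41 and 1.59) and Eif3g (1.37 and 1.67) had 1 weak coding interval each. Eif3j1, for a loosely bound subunit, had 3 intervals over its first exons, the strongest at 2.50 and 1.87. The other members were nearly bare. Eif3d had 1 peak in replicate 1 (1.20), which also overlaps an exon of Gm17638 on the other strand. Eif3e had 1 in replicate 2 (1.48), while Eif3f, Eif3i, Eif3j2, Eif3k and Eif3m had no exonic peak in either list. Of these, Eif3f and Eif3j2 have long 3′ UTRs (1416 nt and 1540 nt). Eif3k has the next-shortest mRNA of all members at 774 nt, and Eif3j2 is a single-exon copy of Eif3j1.

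The factors of start codon selection showed a contrast between paralogs. Eif1a had a strong interval covering the whole coding sequence (4.75 and 2.93) and another in the 3′ UTR (2.47 and 3.35), whereas Eif1ax, which encodes the X-linked form of the same protein, had no exonic peak in either list although its mRNA is longer (5172 nt against 2865 nt). Eif1 had 1 interval in its 5′ UTR reaching the start codon, at 2.08 and 2.27, and its paralog Eif1b had 1 peak, in replicate 2 only and at 1.16. Eif1ad, an eIF1A-like protein, had an interval centred 7 nt past the stop codon at 3.78 and 2.96. A second interval (2.43 and 1.84) had only 27 of its 347 nt in the first exon of Eif1ad. It also overlaps an exon of Banf1 on the other strand, so its reads cannot be assigned to one gene.

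In the cap-binding complex eIF4F, all 5 genes had a shared peak, and the 2 scaffold genes held 16 of the 22 intervals. The background was 45.9% of all protein-coding genes, and 68.5% of those with an mRNA of at least 4000 nt. The median mRNA of the 5 genes was 4991 nt. Eif4g3 had the most intervals of any member, 9, and the strongest of them, at chr4:138206101-138206436, covered the stop codon and the first part of the 3′ UTR at 3.59 in replicate 1 and 3.63 in replicate 2. Its paralog Eif4g1 had 7, and there too the strongest covered the stop codon, at 6.15 and 3.32. The interval centres lay 117 nt and 72 nt past the stop codon. Both genes share a further feature, a long internal exon of the coding sequence that was covered, exon 12 of Eif4g3 (825 nt, 2.13 and 2.53) and exon 9 of Eif4g1 (813 nt, 1.85 and 1.84). In Eif4g3 intervals followed in exons 13 and 14. In Eif4g1 the next interval lay in exon 11, with none in exon 10. The more distant relative Eif4g2, which lacks the part that binds eIF4E and starts at a GUG codon, had 3 intervals in the 5′ UTR and the coding sequence and none near the stop codon, and none reached 2 in both replicates (best values 1.96 and 2.12). Eif4e, the cap-binding protein, was enriched near both ends of its coding sequence. Values were 3.04 and 3.96 in exon 2 across the start codon, and 2.73 and 3.06 in an interval centred 106 nt past the stop codon. A weaker interval lay in exon 3 (1.75 and 1.71). The helicase genes were the weakest of the complex. Eif4a1 reached 1.78 and 1.81 in its 3′ UTR and Eif4a2 only 1.66 and 1.10, and Eif4a3, a relative that works in the exon junction complex, had 1 peak in replicate 1 alone (1.69).

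The intervals near the stop codon of both scaffold genes and of Eif4e held the following GGACT windows in their 3′ UTRs, 275 nt past the stop codon in Eif4g3, 69 nt in Eif4g1 and 91 nt in Eif4e. They lie at chr4:138206412-138206440 for Eif4g3, chr16:20692483-20692511 for Eif4g1 and chr3:138555578-138555606 for Eif4e, all on the plus strand. They are set side by side because the position of the peak recurs between the 3 genes.
Eif4g3: ctttttaaacgaGGACTcatactttaaaa
Eif4g1: agccagccgcctGGACTgcaggggggcgg
Eif4e: tcaaagcagagtGGACTgcactgaagttg

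The helicase cofactor gene Eif4b had 7 shared intervals and one of the most heavily covered mRNAs of the family (36.2% of its 3854 nt). Of these, 6 formed a stretch of 1288 nt from exon 7 to exon 15 that ran over the stop codon, and they were unequal. Exon 8 had 4.05 and 2.32 and the interval over the stop codon 2.60 and 3.99, while the 4 intervals between them had lower values of 1.36 to 1.67. Its partner Eif4h had 3 intervals, at most 2.12 in replicate 1 and 1.67 in replicate 2. Among the eIF4E paralogs, Eif4e2, whose product represses bound mRNAs, had 5 intervals. One covered the first exon (3.22 and 3.09), and 3 lay in a terminal exon of 2643 nt that belongs to the transcripts Eif4e2-202 and Eif4e2-207 and not to the representative one. The strongest of those, at chr1:87237953-87238198, had 3.80 and 3.38. The first exon held no GGACT but 1 GGAC, shown here at chr1:87213931-87213959 in the 5′ UTR, plus strand. Eif4e3 had 1 peak in replicate 2 alone (2.20), and Eif4e1b, known from oocytes, had none.
Eif4e2, first exon: cccttagcgatgGGACccggtagagcgga

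The 4 genes for eIF4E-binding proteins, most of which compete with eIF4G for eIF4E, had 3 shared intervals, 2 in a 3′ UTR and 1 in coding sequence. Eif4ebp1 reached 4.06 in replicate 1 and 3.42 in replicate 2 at 176 nt past the stop codon (chr8:27275080-27275489), and a coding peak in exon 2 was found in replicate 2 alone (3.43). Eif4ebp2, the form most abundant in brain, had 2.69 and 2.99 at 2183 nt past the stop codon, with a further 3′ UTR peak in each replicate that the other lacked (3.43 in replicate 1, 1.51 in replicate 2) and a 5′ UTR peak in replicate 1 alone (2.44). Eif4ebp3, with an mRNA of 744 nt, had 1 coding peak in replicate 2 only (2.06), which also overlaps an exon of the protein-coding gene AC115631.1 on the same strand. Eif4enif1, which carries eIF4E into the nucleus, had 5 coding peaks in replicate 1 and 1 in replicate 2, so that 1 coding interval was shared (2.98 and 2.18). The Eif4ebp1 interval held the following GGACT at chr8:27275360-27275388 in the 3′ UTR, plus strand.
Eif4ebp1: gctccagcgagtGGACTcagaggagtcta

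Eif5b, the GTPase of subunit joining, had the strongest peak of the family by the lower of both values. It was 5.38 in replicate 1 and 4.62 in replicate 2 and covered exons 2 and 3 (chr1:38017694-38018224), and 214 of all protein-coding genes had a stronger one. In all Eif5b had 8 intervals. Of these, 5 ran without a gap of over 100 nt from the 5′ UTR to exon 6, a stretch of 1454 nt, and 3 covered exons 9 to 12. The long exon 4 (670 nt) had the highest replicate 1 value of all members, 6.36, with 3.19 in replicate 2. No shared interval reached beyond 1941 nt after the start codon, in a coding sequence of 3648 nt, and none lay in the 3′ UTR of 3869 nt, where replicate 1 alone had a peak, 131 nt past the stop codon (2.76). Eif5b was in this respect the reverse of Eif4g1, Eif4ebp1 and Eif2ak2, with its strongest interval at the start of the coding sequence. Eif5, the GTPase activator of eIF2, was weak in replicate 2 (3.20 and 1.40 in the 5′ UTR, 1.89 and 1.28 in exon 7). Eif5a, which carries hypusine and acts in elongation, had 1 interval in the 5′ UTR (1.78 and 1.41), and its paralog Eif5a2 had no peak along 5027 nt. Eif6, which keeps the large subunit apart, had 1 interval in the first exon (2.77 and 1.76).

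Exon 2 of Eif5b is printed because it holds most of the strongest coding interval of the family and yet has no GGAC, the core of GGACT. It is chr1:38017806-38017931 on the plus strand. The whole exonic part of its interval (211 nt) had none either, and other forms of the motif were not counted.
Eif5b exon 2: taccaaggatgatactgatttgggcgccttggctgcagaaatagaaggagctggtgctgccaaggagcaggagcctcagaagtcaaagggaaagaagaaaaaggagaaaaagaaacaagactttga

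**Figure D2:**
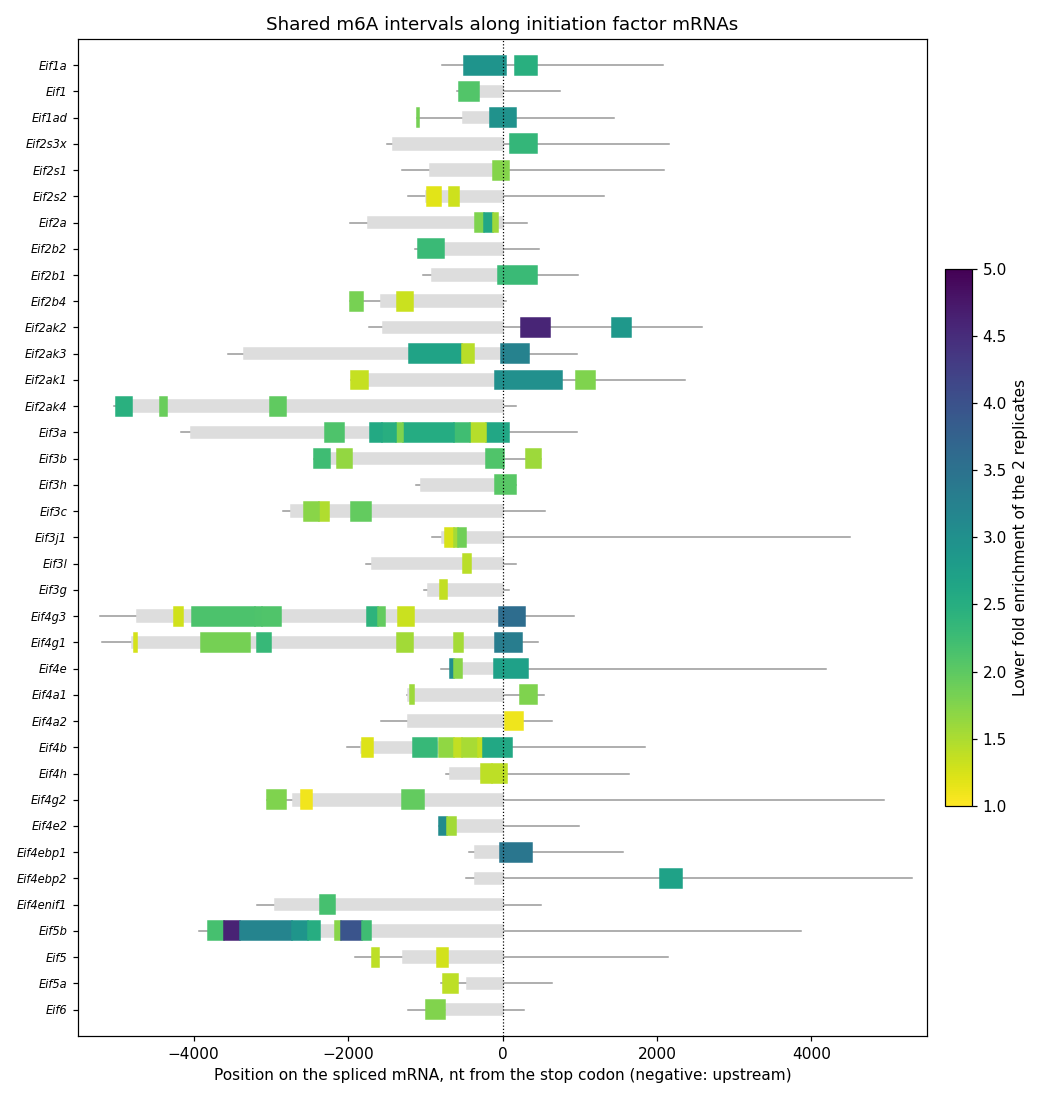
Shared m6A intervals on the spliced representative mRNA of the 37 genes with one; the x axis gives nt from the stop codon (dotted line), grey boxes are coding sequence, thin lines are UTRs, and the colour gives the lower fold enrichment of both replicates. Eif3a and Eif4b are covered in long stretches up to the stop codon and Eif5b from the start codon on, and Eif4g1, Eif4g3, Eif2ak3 and Eif4ebp1 each have a strong interval at or just past the stop codon.

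Across the family the intervals lay mostly in coding sequence. Of the 97 intervals that could be placed on a representative mRNA, 69 were centred in coding sequence (71.1%, 95% Wilson interval 61.5% to 79.2%), 18 in the 3′ UTR (18.6%, 12.1% to 27.4%) and 10 in the 5′ UTR (10.3%, 5.70% to 17.9%). For all protein-coding genes the shares were 59.1%, 29.8% and 11.1%. Such intervals cover counting error only, and peaks on 1 mRNA are not independent of each other. By region the mRNAs of the family were built much like those of all genes. Coding sequence made up 49.5% of their bases, beside 51.1% over all genes, and the 3′ UTR 44.2% beside 41.5%. By exon they differed, with 40.88% of bases in internal exons under 400 nt, beside 30.97% over all genes. Whether this difference bears on the share of intervals in coding sequence was not tested. Shared intervals covered 18.2% of the coding bases and 8.31% of the 3′ UTR bases of the family, beside 12.8% and 9.25% over all genes. These coverages count the bases of genes without a peak too, and 68.5% of members but 45.9% of all genes had a shared peak. Whether coding sequence or 3′ UTR was covered more among genes with a peak was therefore not tested. Within 200 nt of the stop codon, where m6A is known to gather, lay the centres of 16 intervals (16.5%, 10.4% to 25.1%), beside 22.9% of those of all genes. They belonged to 15 members (27.8% of the family, background 22.1%). These shares changed with the strength of the peaks. Of the 45 placed intervals whose values both reached 2, 60.0% were centred in coding sequence and 26.7% near the stop codon. The shares over all genes were not computed for such intervals. The differences from all genes given here are therefore those for peaks of any strength.

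Exon structure gave a closer view. In the family, 53 of 534 internal exons under 400 nt held the centre of a shared interval (9.93%, background 3.37%), and 7 of 9 internal exons of at least 400 nt did (77.8%, background 50.4%). The 7 were those named above in Eif2ak3, Eif3a, Eif4g1, Eif4g3 and Eif5b, exon 12 of Eif2ak4 and exon 11 of Eif3l, and the exceptions were exon 10 of Eif2a and exon 9 of Eif2ak4. First exons (13 of 53, 24.5%, background 14.0%) and last exons (20 of 53, 37.7%, background 35.6%) completed the picture. These shares count exons of genes without a peak too, and 68.5% of members but 45.9% of all genes had a shared peak. Whether the exon shares differ among genes with a peak was not tested. Short internal exons were not evenly spread over genes. Eif3a, Eif4b, Eif4g3 and Eif5b had runs of covered neighbours, and neighbouring exons of such a run often had separate intervals. When covered parts at most 100 nt apart on the spliced mRNA were joined, the 97 intervals became 66 stretches.

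**Figure D3:**
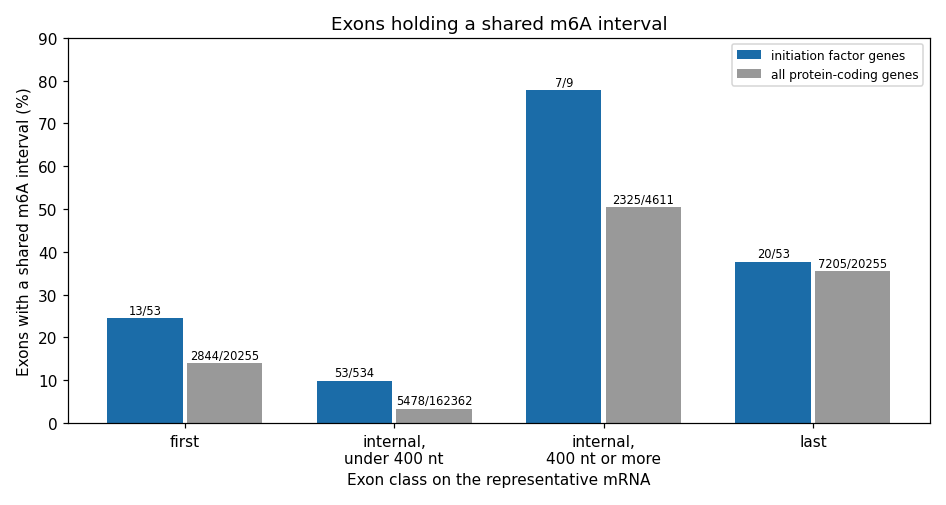
Share of exons (%) of the representative mRNAs that held the centre of a shared m6A interval, for the 54 initiation factor genes (blue) and all protein-coding genes (grey), with numbers of exons above the bars. Blue bars are higher for first exons and for both kinds of internal exon and about level for last exons. Exons of genes without a peak are counted too.

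The length of the mRNA went with the presence of a peak. Members with a shared peak had a median mRNA of 2945 nt and those without one of 1899 nt, although the ranges overlapped widely (1101 to 7995 nt and 744 to 5172 nt). The longest internal exon reached 825 nt in the first set and 313 nt in the second. In each class of length the family stood above the background, with 10 of 19 genes under 2000 nt (52.6%, background 24.9%), 14 of 20 from 2000 to under 4000 nt (70.0%, background 50.8%) and 13 of 15 of at least 4000 nt (86.7%, background 68.5%). The 2 exceptions of at least 4000 nt were Eif1ax and Eif5a2, each with a 3′ UTR of over 4000 nt and no peak in either list. The part that expression plays in this was not tested, since the lists hold no mRNA level, and the background includes genes that brain does not express. Of the 12455 genes with an exonic peak in at least 1 replicate, 80.2% had a shared one, and of the 45 members with an exonic peak in at least 1 replicate, 37 did (82.2%).

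Other genes of the translation machinery, listed by name, gave a range of shares. Of 83 ribosomal protein genes 25 had a shared exonic peak (30.1%), with median fold enrichments of 1.98 and 1.71, and 27 of their 36 placed intervals lay within 200 nt of the stop codon (75.0%). The median ribosomal protein mRNA was 886 nt long, and among genes under 2000 nt the share was 29.9% in this list and 52.6% in the initiation factors. Elongation and termination factor genes had shared peaks in 12 of 14 cases (85.7%, medians 2.61 and 2.00), with Pelo, a ribosome rescue factor, at 5.66 and 4.24. Partners and regulators of initiation factors under other names had them in 20 of 21 (95.2%, medians 2.99 and 2.07). Among them were Gigyf2, a partner of the Eif4e2 product, with 11 shared intervals, and Larp1, which binds mRNAs of the translation machinery, with 8. The background for both lists was 45.9% of all genes. Their median mRNAs were 2585 nt and 3763 nt long, beside 2588 nt over all genes. Among genes of 2000 to under 4000 nt, 8 of 9 and 8 of 8 had a shared peak (background 50.8%).

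**Figure D4:**
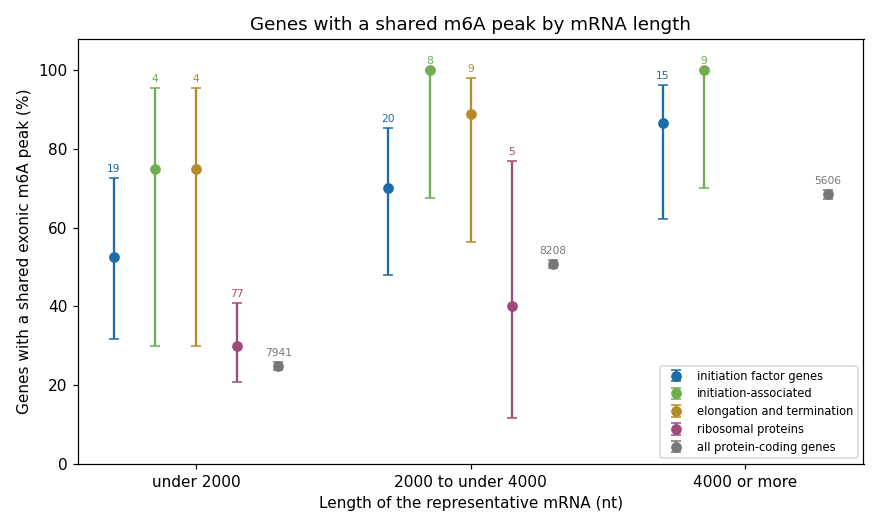
Share of genes (%) with a shared exonic m6A peak by length of the representative mRNA, for the initiation factor genes, 3 lists of other translation genes and all protein-coding genes; bars are 95% Wilson intervals, numbers above them are genes, and classes with under 3 genes are left out. Initiation factor genes lie above all protein-coding genes in each class, with wide intervals that hold the share of all genes in both longer classes.

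The replicates agreed on most sites and less on their strength. Of 139 member peaks in replicate 1, 102 overlapped a peak of replicate 2 (73.4%), and of 128 in replicate 2, 102 overlapped one of replicate 1 (79.7%). Unshared peaks were weaker, with a median fold enrichment of 2.12 against 2.47 for shared ones in replicate 1 and of 1.51 against 2.02 in replicate 2. Replicate 1 was the higher in 76 of the 103 shared intervals (73.8%), as it was in 77.6% of all 23901. On the log2 scale the difference between replicates had a median of 0.27 and an SD of 0.45 over the members. Across the 103 intervals the 2 values had a Spearman rho of 0.68, in which intervals of 1 mRNA share their input. The SD equals a ratio of 1.37 between replicates, and a smaller gap between intervals is within this spread. The order of the strongest members changed with the replicate. By replicate 1 it was led by Eif5b (6.36), Eif4g1 (6.15) and Eif3a (6.09), and by replicate 2 by Eif2ak2 (6.73), Eif5b (4.62) and Eif4b (3.99), with Eif5b the one gene in both.

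**Figure D5:**
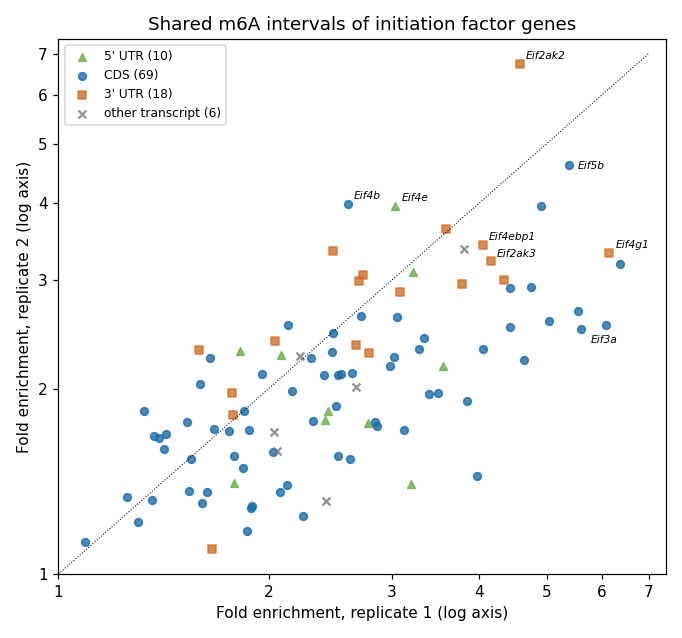
Fold enrichment of the 103 shared intervals in replicate 1 (x) and replicate 2 (y), both on log axes, by position of the interval; the dotted line marks equal values. Most points lie below the line, among them all 8 intervals of Eif3a and the strongest of Eif4g1 (6.15 and 3.32), while the strongest intervals of Eif2ak2 (4.58 and 6.73) and Eif4b (2.60 and 3.99) lie above it.

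GGACT and its core GGAC were present in many intervals but not in all. GGACT was found in the exonic bases of 34 of the 97 placed intervals (35.1%, 26.3% to 45.0%), beside 37.7% over all genes, and GGAC in 61 (62.9%, 53.0% to 71.8%), beside 74.8%. Both motifs were read on the mRNA strand alone, and every GGACT is also a GGAC. The share of intervals with a motif also depends on how many bases they hold, 22411 nt for the 97 of the family and 7675983 nt for the 21886 of all genes. Per 1000 nt, GGACT occurred 2.05 times in covered bases of the family and 1.08 times outside them, and for all genes these densities were 1.61 and 1.01. Those of GGAC were 6.96 and 3.91 in the family, and 6.03 and 3.83 for all genes. A site may also have another form of the motif, or lie in a part of the fragment beyond the interval.

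Several members have near-identical copies in the genome, and since the authors kept uniquely mapped reads this bears on which of them could be seen. Windows of 101 nt, the read length, were taken at each position of the 54 mRNAs and looked up in the genome without mismatches. No window was copied outside the gene in 31 members, and over 50% of windows were in Eif2s3x (90.2%), Eif3j1 (73.4%), Eif4a1 (72.0%) and Eif3j2 (59.1%). The copy of Eif2s3x is the processed pseudogene Gm2223, that of Eif4a1 is Eif4a-ps4, and Eif3j1 and Eif3j2 are copies of each other. No peak of either list lay on Gm2223, Eif4a-ps4 or Eif3j2. The shared interval of Eif2s3x lay wholly in copied sequence, as did 2 of 3 in Eif3j1, and 97.7% of the windows over the exon 2 interval of Eif4a1 were copied, so these values are uncertain. Absence of a peak is likewise uncertain in Eif3j2. Of the other members without a shared peak none had more than 13.2% of its windows copied (Eif3m), and Eif1ax, Eif1b, Eif2b3, Eif2b5, Eif2d, Eif3d, Eif3f, Eif3i, Eif3k, Eif4e3 and Eif4ebp3 had none.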

How the data were processed

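The samples were 2 m6A IP and 2 input libraries of mouse whole brain. Per the labels the authors aligned reads with TopHat2 2.0.9 to mm10, and per their methods they kept uniquely mapped reads and called peaks with MACS2 for each IP against its own input, without pooling replicates. The deposited values are peak positions and a ratio, the fold enrichment of IP over input; they come without counts, p-values or depth, so no interval for depth can be given. The input samples have no list used here. Peaks were called on genome positions, so a peak over a short exon reaches into introns.

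Peaks were joined to GENCODE M21 exons in Python 3.11.15, and the genes with a shared interval were the same with bedtools 2.31.1. Gene, exon and sequence coordinates are GRCm38 (mm10), counted from 1. The representative transcript was the complete, basic APPRIS principal one with the longest coding sequence. This rule was set after the data were seen, in place of longest coding sequence alone, which picked incomplete transcripts; the latter is among the alternatives. Intervals were placed by the middle of their exonic bases, and 6 of 103 lay outside it. The overlap and placement steps were tested on simulated data. The members and lists were chosen with earlier results of these data known. Named with values were the member with the strongest shared peak in each complex, the 5 strongest and the 3 with most intervals, their paralogs and every member without a shared peak; other members were named after their values were seen, as were the windows of genes outside the 5 strongest. The motif window of Eif5b is not reported here. Strongest means the highest lower value of both replicates. Alternatives concerned the overlap rule, a fold enrichment minimum, the exon set, left-out replicates, the stop codon window, the motif and the background.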

Additional observations from a re-analysis of the deposited data

How the results depend on the processing

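Without replicate 1 or without replicate 2, peaks of the other list alone gave 41 and 41 members, 128 and 139 intervals, and 49.9% and 54.9% of all protein-coding genes. With a fold enrichment of at least 2, 23 members and 48 intervals remained, beside 37.1% of all genes, the shares became 26.7% near the stop codon, 60.0% in coding sequence and 53.3% with GGACT, and the medians 2.72 and 2.48 (2.34 and 1.89 over all member peaks). The share of all genes was 43.4% with 50% overlap, 44.9% with representative exons only, 44.8% with the midpoint in an exon, 42.3% without peaks over several genes, 80.2% among genes with a peak and 47.0% within the family's range of lengths. A stop codon window of 100 nt gave 9.28% and one of 400 nt 25.8%, and the motif GGAC gave 62.9%. The other settings moved no result by more than its counting error or 1.5 times for a count. Longest coding sequence alone gave 15.5% near the stop codon and 74.2% in coding sequence. No paired analysis was possible because the series has 1 condition and no test. Depth is not given, which limits weak peaks and absent ones alike.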
